A study of Mus musculus with 49 samples.

Results

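The Nr4a family comprises 3 nuclear receptors, Nr4a1, Nr4a2 and Nr4a3, and all 3 were found among the 52636 genes counted in D1- and D2-medium spiny neurons (MSNs) of the mouse nucleus accumbens (NAc). The family was taken as a whole and was chosen by the counts of Nr4a2, which had been seen to be far higher in D1 than in D2 RiboTag libraries. The D1 and D2 RiboTag levels of the members are therefore given as a description, without a test. RNA from these neurons was sequenced after 3 isolation methods. These gave 47 libraries once the lanes of whole cell D2 number 3 were summed, and a column named as a repeat of whole cell D1 number 1 was summed with it. Whether that repeat came from the same mouse is not settled.

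All mice were on a C57BL/6J background, and their ages are not given in the sources used here. Whole cell-FACS sorted cells from fresh, papain-treated tissue of mice that carried a cytoplasmic fluorophore under the promoter of Drd1 (8 libraries) or Drd2 (6 libraries). Nuclear-FACS sorted nuclei from frozen tissue of mice in which Drd1-cre (6 libraries) or Drd2-cre (5 libraries) switched on a nuclear GFP from a Thy1-loxP-STOP-loxP-EGFP-F transgene. RiboTag immunoprecipitated ribosomes carrying HA-tagged Rpl22 from fresh tissue of Drd1-cre or Drd2-cre mice, without a sort, so that any cell of the dissected tissue that had used Cre could contribute. RiboTag libraries comprised 6 D1 and 6 D2 libraries labelled male and 5 D1 and 5 D2 libraries labelled female, and whole cell and nuclear libraries were all labelled male. Each sample is stated to come from a different mouse.

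The Nr4a receptors are orphan members of the nuclear receptor superfamily. They act without a classical ligand, and their activity is set mainly by how much of each protein is made. Their genes are immediate early genes, which neurons switch on within minutes of calcium or cyclic AMP signalling through CREB, its CRTC coactivators, SRF and MEF2 factors. The proteins bind DNA alone at NGFI-B response elements or as dimers, and Nr4a1 and Nr4a2 can also pair with retinoid X receptors. In the striatum Nr4a1 is known for its response to dopamine and to drugs acting on dopamine receptors, and Nr4a3 for its response to neuronal activity. Nr4a2 is best known for specifying and maintaining midbrain dopamine neurons, and in the forebrain it marks the claustrum and the deepest cortical layer.

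The sequences just before the transcription starts are shown because the members are induced by the same signals and the cyclic AMP response is read there. Sequences are from RefSeq (GRCm38.p6), 5′ to 3′ on the strand of the gene, and the capitals mark TGACG, the core of the cyclic AMP response element, on either strand (CGTCA where it lies on the other strand). The Nr4a3 sequence ends where annotated exons begin.
Nr4a1, chr15:101266596-101266845, plus strand: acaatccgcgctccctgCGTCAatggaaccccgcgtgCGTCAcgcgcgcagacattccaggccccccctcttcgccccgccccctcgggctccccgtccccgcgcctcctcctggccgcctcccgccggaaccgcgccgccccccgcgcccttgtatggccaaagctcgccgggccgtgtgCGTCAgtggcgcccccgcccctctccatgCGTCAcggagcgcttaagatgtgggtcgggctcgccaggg
Nr4a2, chr2:57124004-57124253, minus strand: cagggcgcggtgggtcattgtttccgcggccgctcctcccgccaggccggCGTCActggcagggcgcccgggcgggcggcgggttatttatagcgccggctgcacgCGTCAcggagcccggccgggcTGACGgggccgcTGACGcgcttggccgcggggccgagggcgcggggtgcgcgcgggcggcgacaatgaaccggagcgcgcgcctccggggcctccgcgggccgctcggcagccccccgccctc
Nr4a3, chr4:48045055-48045152, plus strand: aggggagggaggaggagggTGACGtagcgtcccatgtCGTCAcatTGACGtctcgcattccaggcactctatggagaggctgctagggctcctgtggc

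Each member held 4 copies of TGACG within 250 bases of its start. In Nr4a1 they began 233, 213, 69 and 40 bases before the start, and in Nr4a2 200, 144, 123 and 111 bases before it. In Nr4a3 they began 231, 213, 205 and 147 bases before the start, the last of them past the end of the printed sequence. Of 32851 mouse promoters of the same length, 17.8% held at least 1 copy and 0.137% at least 4 (45 promoters, the members included). The full palindrome TGACGTCA, which contains TGACG, occurred in 1.55% of promoters and in no member, and AAAGGTCA, the NGFI-B response element, in 1.34% and in no member. TATAAA occurred once in Nr4a2, 164 bases before the start on the opposite strand, and in 12.4% of promoters. A match of letters does not show that a factor binds there.

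In the GRCm38 annotation Nr4a1 (ENSMUSG00000023034) spans chr15:101254269-101274795 on the plus strand, Nr4a2 (ENSMUSG00000026826) chr2:57106830-57124003 on the minus strand and Nr4a3 (ENSMUSG00000028341) chr4:48045153-48086447 on the plus strand. The Nr4a1 promoter shown lies inside the annotated gene, which has a longer form that starts further upstream. No annotated gene overlaps a member, so that fragments counted on a member were not shared with another gene. The nearest genes on either side were Grasp and Atg101 for Nr4a1, Gm13527 and BB557941 for Nr4a2, and Gm12434 and Stx17 for Nr4a3. Only Grasp and Atg101 passed the filters, and neither was called different between D1 and D2 by any method.

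Library totals lay between 10476223 and 27965357 counts for whole cell libraries, from 3701255 to 68777008 in nuclear and from 24076888 to 45641342 in RiboTag libraries, in which the 10 most counted genes took 84.9% to 88.3% of the counts. The labelled cell types were checked with 5 markers each. All 5 D1-MSN markers (Drd1, Pdyn, Tac1, Isl1, Chrm4) and all 5 D2-MSN markers (Drd2, Adora2a, Penk, Gpr6, Sp9) were called in the labelled direction in whole cell libraries, and 4 and 5 of them in RiboTag libraries of either labelled sex. In nuclear libraries only 1 of the 4 D1 markers tested, Drd1, was called in the labelled direction, at 1.77 log2 units higher in D1. Of the 4 D2 markers tested there, Drd2 was called 1.72 log2 units higher in D2 and Penk, the enkephalin precursor, 2.44 higher in D1, and 3 of the 4 had a D2 minus D1 value against the label (median −0.60). Of the 12 RiboTag libraries labelled male, 6 (D1 numbers 1 to 4, D2 numbers 2 and 6) had more counts on Xist than on Y-linked genes. Their Y-linked genes summed to at most 1.78 CPM, against at most 0.246 CPM in libraries labelled female and at least 8.54 CPM in the others labelled male. Not all of them thus match the libraries labelled female. The fits, family shares and list relations that use these 6 libraries were repeated without them, with what changed given beside each. Reads away from expressed genes were measured on 1429 olfactory and vomeronasal receptor genes, which these neurons are not known to use. Their median was 3.52 counts per kilobase in whole cell D1, 2.34 in whole cell D2, 0.391 in nuclear D1 and 12.6 in nuclear D2 libraries, and it was at most 0.0124 in any RiboTag group. Multiplied by a member's span, this rate gives an estimate of the count expected from background alone, which need not hold at every gene.

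Levels are given as normalised CPM, that is, counts scaled to an equal effective library size over all 47 libraries by the TMM method on 5726 genes with sufficient expression. In RiboTag libraries Nr4a2 had the widest range of the 3 genes between groups, whereas Nr4a1 and Nr4a3 were highest in whole cell and nuclear libraries. The mean Nr4a1 level was 69.7 ± 30.6 CPM (SD, n = 6) in whole cell D2, 62.6 ± 21.3 (n = 5) in nuclear D2, 56.7 ± 28.5 (n = 6) in nuclear D1 and 38.0 ± 11.7 (n = 8) in whole cell D1 libraries. RiboTag libraries had the lower Nr4a1 means, from 31.0 ± 5.95 (n = 6) in D2 labelled male to 21.7 ± 4.74 (n = 5) in D2 labelled female. The ranges of every pair of neighbours in this order overlapped.

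The mean Nr4a3 level was 138.9 ± 31.4 CPM (SD, n = 5) in nuclear D2, 98.6 ± 37.4 (n = 6) in nuclear D1, 92.8 ± 26.5 (n = 6) in whole cell D2 and 68.2 ± 13.2 (n = 8) in whole cell D1 libraries. In RiboTag libraries it was 41.8 ± 16.1 (n = 6) in D1 and 36.2 ± 11.8 (n = 6) in D2 labelled male, and 27.1 ± 5.10 (n = 5) in D1 and 19.7 ± 3.41 (n = 5) in D2 labelled female. Again all neighbours overlapped. For Nr4a2 the order was RiboTag D1 labelled male, nuclear D2, nuclear D1, RiboTag D1 labelled female, whole cell D1, whole cell D2, RiboTag D2 labelled male and RiboTag D2 labelled female, and of all neighbours only the last pair did not overlap. The order between methods depends on the scaling. When the 28081 genes that pass without the FPKM filter set the scale, RiboTag D1 labelled male stayed first for Nr4a2, at 21.2 ± 6.83 CPM (n = 6), but for Nr4a1 every RiboTag group other than D2 labelled female moved above both whole cell groups, with 13.97 ± 2.67 CPM (n = 6) in RiboTag D2 labelled male, 10.6 ± 4.02 (n = 6) in whole cell D2 and 9.91 ± 2.25 (n = 5) in RiboTag D2 labelled female. For Nr4a3 the highest mean passed from nuclear D2 to RiboTag D1 labelled male, at 19.1 ± 7.26 CPM (n = 6), and nuclear D2 fell to the seventh place at 10.1 ± 1.95 (n = 5).

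**Figure D1:**
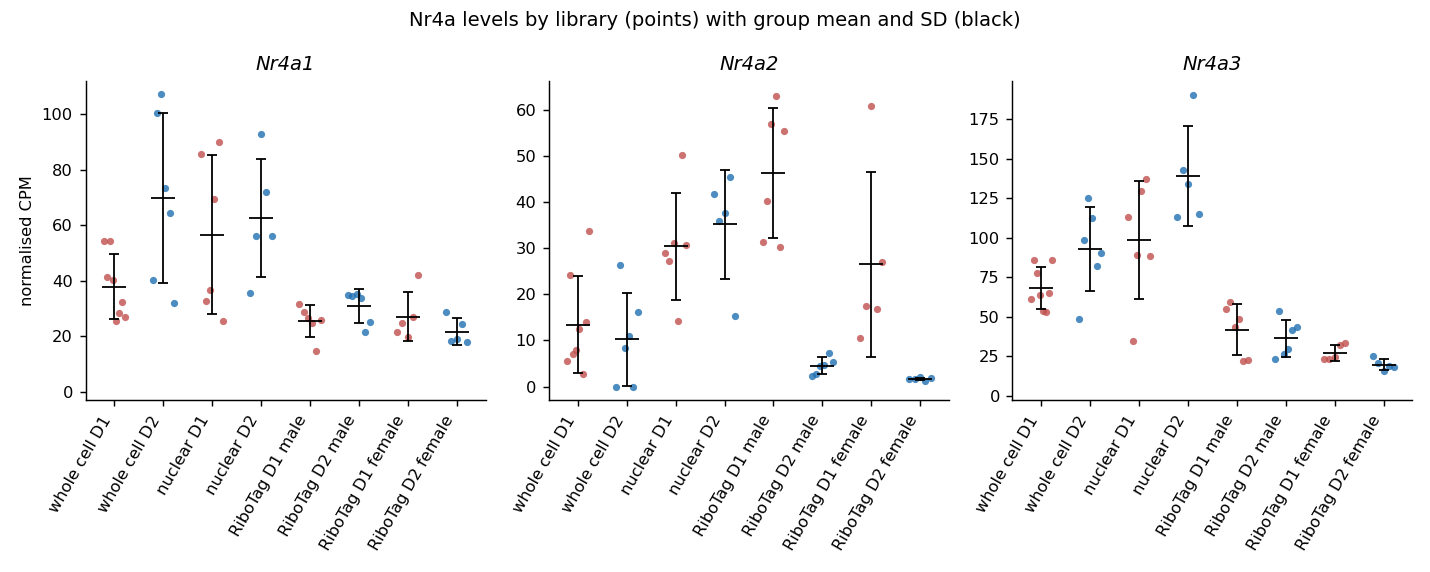
Normalised CPM of Nr4a1, Nr4a2 and Nr4a3 (vertical axes) in each of the 47 libraries, by isolation method, cell type and labelled sex, with the mean and SD of each group. Nr4a2 in RiboTag libraries sits between 10.5 and 63.1 CPM in D1 and between 1.30 and 7.28 in D2, whereas the groups of Nr4a1 overlap across cell types in every method.

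Nr4a2, the family member that marks claustral and deep cortical neurons in the forebrain, was the member that differed most between D1 and D2 in RiboTag libraries. In the 6 D1 libraries labelled male it had a lowest, median and highest level of 30.3, 47.8 and 63.1 CPM (125 to 349 counts), and in the 6 D2 libraries 2.38, 4.64 and 7.28 CPM (9 to 34 counts). In the 5 D1 libraries labelled female (numbers 1, 2, 4, 5 and 6) it was at 10.5, 17.4, 60.9, 16.7 and 26.9 CPM, and in the 5 D2 libraries (numbers 1, 2, 3, 5 and 6) at 1.60, 1.53, 1.96, 1.30 and 1.78 CPM. The groups did not overlap in either labelled sex, and number 4 stood far above the other D1 libraries labelled female.

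The fitted difference (edgeR, D2 minus D1) was −3.36 log2 units, or 10.3-fold higher in D1, in libraries labelled male, and −4.03 log2 units, or 16.4-fold, in those labelled female. These are the values for which the family was chosen. For comparison, 2.58% of the 6819 genes tested were called different between D1 and D2 in libraries labelled male (1.64% higher in D1) and 1.89% of 7095 in those labelled female (1.17% higher in D1), where a call required an adjusted p no greater than 0.05, a log2 fold change beyond 0.38 in size and a mean count past the 25th percentile. Leaving out any 1 library moved the difference within −3.54 to −3.24 and −4.23 to −3.45 log2 units, respectively. Without the 6 libraries labelled male that had more Xist than Y-linked counts it was −3.23 log2 units. In bulk RNA of this kind, a higher level per cell and a larger share of cells with Nr4a2 cannot be told apart.

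**Figure D2:**
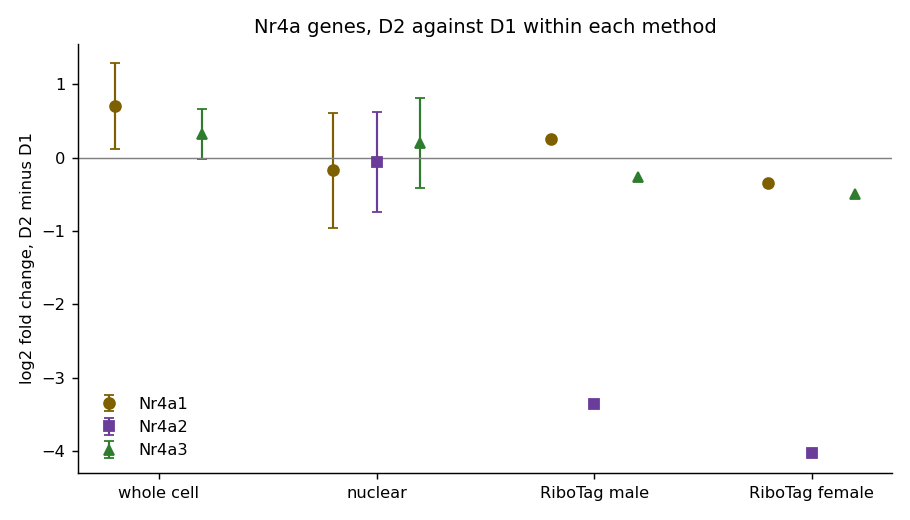
Log2 fold change of each member between D2 and D1 (D2 minus D1, vertical axis) in whole cell, nuclear and RiboTag libraries (horizontal axis). Lines are 95% intervals and are drawn only for whole cell and nuclear libraries, since RiboTag values are a description. Nr4a2 lies at −3.36 and −4.03 in RiboTag libraries and at −0.05 in nuclear libraries.

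Neither sorting method showed such a difference in Nr4a2, but in most of these libraries its counts were close to background. In whole cell D1 libraries Nr4a2 had 34 to 126 counts with a median of 81.5, which was 0.995 to 2.12 times the count expected from background. In the 6 whole cell D2 libraries it had 0, 132, 110, 53, 0 and 80 counts. The libraries at 0, numbers 1 and 5, can show no level under 0.276 and 0.174 CPM of their totals, taken as 3 counts. The background rate put 15.5 and 19.3 counts there, so that it did not hold at this gene in those libraries. The other 4 were at 0.954 to 3.33 times background. The D1 and D2 counts overlapped, and Nr4a2 did not pass the FPKM filter of this comparison. Without that filter the difference was −0.29 log2 units (SE 0.76, edgeR, adjusted p = 1), which is smaller than its error.

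In the 6 nuclear D1 libraries Nr4a2 was at 14.2, 29.8 and 50.2 CPM (lowest, median, highest), and in the 5 nuclear D2 libraries (numbers 1, 2, 3, 5 and 7) at 41.8, 35.8, 37.6, 45.5 and 15.2 CPM. The groups overlapped widely. The difference was −0.05 log2 units (95% interval −0.74 to 0.63, edgeR, adjusted p = 0.926). The RiboTag values lie outside this interval. It is for counts with background included, however, so it cannot exclude such a D1 excess in Nr4a2 RNA. Few cell type markers were called in the labelled direction in nuclear libraries, as given above. Without the FPKM filter the difference was −1.30 log2 units and called (adjusted p = 0.0458), in a scaling that moved the median of all genes from 0.04 to −1.07. The nuclear D2 counts were 0.954 to 2.44 times background, against 3.17 to 75.4 times in nuclear D1, and the part of background in these values was not tested. RiboTag libraries differed from both in this respect, since their Nr4a2 counts were at least 35.2 times the expected background, in D2 as well as in D1.

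**Figure D3:**
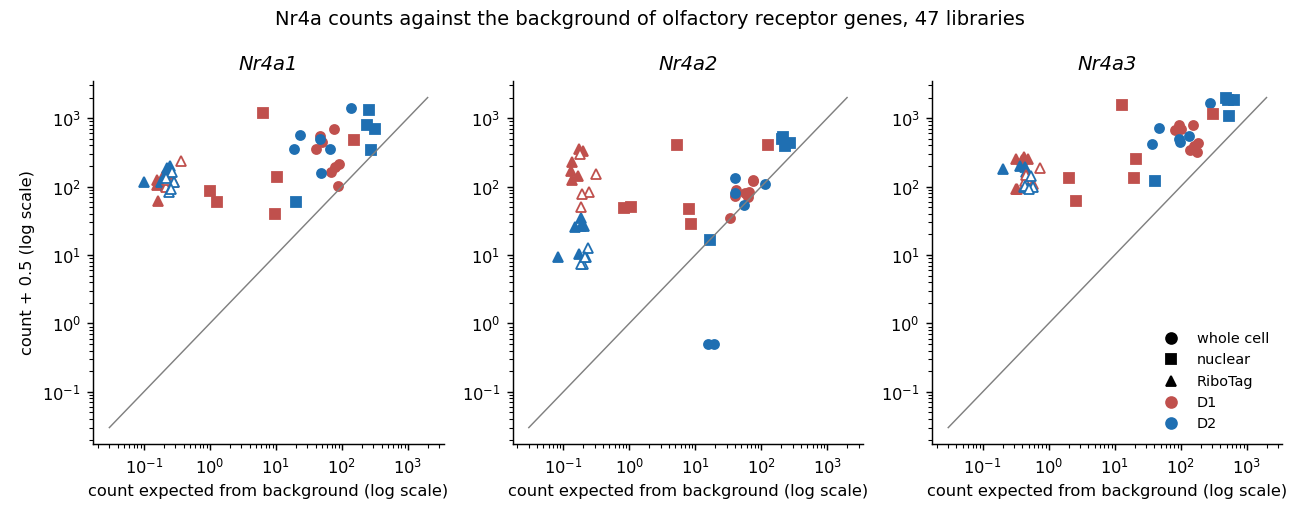
Count of each member (vertical axis, count plus 0.5) against the count expected from the receptor gene background (horizontal axis) in the 47 libraries, on log axes, with D1 in red, D2 in blue and the line of equality. Nr4a2 lies near the line in most whole cell and nuclear D2 libraries, at 0.954 to 2.44 times background in nuclear D2, and far above it in RiboTag libraries. Whole cell D2 numbers 1 and 5, which had no Nr4a2 count, lie below the line.

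Nr4a1, the member most closely tied to dopamine signalling in the striatum, was not called different between D1 and D2 in whole cell or nuclear libraries by edgeR. In the 8 whole cell D1 libraries it was at 25.4, 36.3 and 54.4 CPM (lowest, median, highest), and in the 6 whole cell D2 libraries at 32.0, 69.0 and 107.3 CPM. The groups overlapped, with 4 of the 6 D2 libraries above every D1 library. The difference was 0.71 log2 units (1.63-fold higher in D2, SE 0.28), which did not pass the threshold (edgeR, adjusted p = 0.227). In this comparison 0.844% of 17171 genes were called. With DESeq2 it was 0.86 log2 units and passed (adjusted p = 0.0445). The 8 microglial markers summed to 308.5 to 1033 CPM in whole cell D1 and to 267.2 to 15388 CPM in whole cell D2 libraries, with none of the 3 tested called, and their part in the Nr4a1 values was not tested. Nr4a1 counts were 1.14 to 11.7 times background in whole cell D1 and 3.28 to 24.4 times in whole cell D2 libraries. The part of background was not tested either.

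In nuclear D1 libraries Nr4a1 was at 25.5, 53.1 and 90.0 CPM (lowest, median, highest), and in the 5 nuclear D2 libraries at 35.8, 56.1, 93.0, 72.1 and 56.0 CPM. The groups overlapped, and the difference was −0.17 log2 units (95% interval −0.95 to 0.62, edgeR, adjusted p = 0.777). Without the FPKM filter it was −1.43 log2 units (adjusted p = 0.0595), with the shift of the median given above. In this comparison 12.6% of 9603 genes were called. Nr4a1 counts were 3.13 to 186.4 times background in nuclear D1 and 1.24 to 5.03 times in nuclear D2 libraries. The part of background in this difference was not tested. The difference between the methods in the D2 to D1 change of Nr4a1, tested as an interaction, was −0.87 log2 units (SE 0.40, edgeR, adjusted p = 0.129). In RiboTag libraries the D2 minus D1 values were 0.25 log2 units in those labelled male (0.56 without the 6 libraries with more Xist) and −0.34 in those labelled female, given without a test.

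Nr4a3, an activity-induced member, was also not called between cell types. In whole cell libraries it was at 53.1, 64.3 and 85.8 CPM (lowest, median, highest) in D1 and at 48.7, 94.3 and 124.9 CPM in D2. The ranges overlapped, and the difference was 0.32 log2 units (SE 0.16, edgeR, adjusted p = 0.397). In nuclear libraries it was at 34.4, 101.2 and 137.0 CPM in D1 and at 112.8, 143, 133.6, 190.3 and 115 CPM in the 5 D2 libraries. These overlapped as well, with a difference of 0.20 log2 units (95% interval −0.42 to 0.81, adjusted p = 0.663). In RiboTag libraries the D2 minus D1 values were −0.27 log2 units in those labelled male and −0.49 in those labelled female, given without a test. Without the 6 libraries with more Xist, Nr4a3 did not pass the filter of the former comparison.

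The other genes of the pathway were read from lists. Of 20 immediate early genes, such as Fos, Jun and Egr1, 16 were tested in whole cell libraries, where 0.844% of all genes were called. None of the 16 was called between D1 and D2, with a median difference of 0.19 log2 units against −0.09 over all genes tested. In nuclear libraries, where 12.6% of all genes were called, 2 of 11 were called, both higher in D1, namely Egr1 (2.82-fold) and Jun (2.47-fold). In RiboTag libraries none of 12 was called in either labelled sex. Of all genes, 2.58% were called there in those labelled male and 1.89% in those labelled female. Of 14 upstream regulators and partners, none of 11 was called in whole cell libraries and 1 of 10 in nuclear libraries, again near that share, the CREB coactivator Crtc2, which was 0.87 log2 units higher in D2. In RiboTag libraries labelled male 1 of 10 was called, the retinoid X receptor Rxrg, 0.41 log2 units higher in D2, and in those labelled female none of 10.

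The comparison of methods asks how much of each transcript is seen in nuclei, in whole cells and on ribosomes. Fragments were counted over whole gene bodies, so that unspliced RNA counts as well. Between nuclear and whole cell libraries, 39.7% of 8041 genes were called in D1 and 30.0% in D2. Nr4a2 was the only member called, 1.72 log2 units (3.30-fold) higher in nuclear D2 than in whole cell D2 libraries (SE 0.62, edgeR, adjusted p = 0.0264). This call was lost with DESeq2 (adjusted p = 0.0511), without the FPKM filter (0.94 log2 units, adjusted p = 0.271) and without the 6 RiboTag libraries labelled male with more Xist than Y-linked counts (1.51 log2 units, adjusted p = 0.0977), and background was higher in nuclear D2 than in whole cell D2 libraries, as given above. In D1 the 3 members were 0.60 (Nr4a1), 1.23 (Nr4a2) and 0.56 (Nr4a3) log2 units higher in nuclear libraries, with adjusted p = 0.0653, 0.0650 and 0.0501 (edgeR), and without those 6 libraries Nr4a3 was called (0.59 log2 units, adjusted p = 0.0268). In D2, Nr4a1 differed by −0.27 and Nr4a3 by 0.46 log2 units (adjusted p = 0.524 and 0.170).

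Between RiboTag libraries labelled male and whole cell libraries, 42.9% of genes were called in D1 and 44.8% in D2, with a median log2 fold change over all genes tested of −0.38 and −0.22. In D2, Nr4a1 was 0.90 log2 units (1.87-fold) and Nr4a3 1.09 log2 units (2.12-fold) lower in RiboTag libraries (SE 0.29 and 0.26, edgeR, adjusted p = 0.00651 and 0.000411). Without the FPKM filter both directions turned, to 0.47 and 0.30 log2 units higher in RiboTag libraries, and neither passed the threshold. That setting moved the median of the same 8041 genes in D2 from −0.22 to 1.05 log2 units, so that both members lay below the median under either scaling. In D1 the differences were −0.29 (Nr4a1) and −0.41 (Nr4a3) log2 units (adjusted p = 0.360 and 0.135), and without the filter they were 0.95 and 0.94, both called, with the median of all genes moving from −0.38 to 0.92. Without the 6 RiboTag libraries with more Xist, the D2 call of Nr4a1 was lost (−0.74 log2 units, adjusted p = 0.0732), that of Nr4a3 held (−1.21, adjusted p = 0.000321), and Nr4a3 was called in D1 as well (−1.13, adjusted p = 0.0111). No direction between RiboTag and whole cell libraries holds for these genes under both scalings. Nr4a2 was 2.12 log2 units higher in RiboTag than in whole cell D1 libraries and 0.86 lower in D2, given without a test since its RiboTag level chose it. Without the FPKM filter the D2 direction of Nr4a2 turned while that in D1 did not, as given at the end. Its whole cell counts were mostly near background in both cell types.

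Between labelled sexes, no member was called in RiboTag libraries. In D1, 0% of 7209 genes were called by edgeR (564 had an unadjusted p under 0.05, and DESeq2 called 1), and in D2 0.0555%. Nr4a2 was 0.83 log2 units lower in D1 libraries labelled female (SE 0.26, adjusted p = 0.407), and Nr4a3 0.66 lower (adjusted p = 0.412). Without D1 number 4 labelled female, the library with the highest Nr4a2 level of that group, Nr4a2 was 1.41 log2 units lower and was called (adjusted p = 0.000661). In D2, Nr4a1, Nr4a2 and Nr4a3 were 1.45-, 2.84- and 1.86-fold lower in libraries labelled female (adjusted p = 0.364, 0.572 and 0.110).

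Nr4a3 levels also split within the labelled male libraries, in a grouping by Xist that was made after seeing the data. In D1 it was at 54.8, 59.3, 43.6 and 48.8 CPM in numbers 1 to 4, which had more Xist than Y-linked counts, and at 22.04 and 22.37 CPM in numbers 5 and 6. In D2 it was at 53.4 and 43.3 CPM in numbers 2 and 6, which had more Xist, and at 23.1, 26.1, 29.8 and 41.6 CPM in the other 4. The Nr4a3 levels did not overlap in either cell type, whereas those of Nr4a1 and Nr4a2 overlapped in both. These groups hold few libraries, and how many of all genes split in the same way was not examined. When the libraries with more Xist than Y-linked counts were left out, the Nr4a3 difference between labelled sexes in D1 changed sign, to 0.23 log2 units.

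Levels of different genes can be set side by side only per length. Per kilobase of exon, the members in RiboTag D1 libraries labelled male were at 11.4 ± 3.47 (Nr4a2), 7.26 ± 1.64 (Nr4a1) and 6.98 ± 2.69 (Nr4a3) CPM (SD, n = 6), and in D2 libraries labelled male at 1.11 ± 0.45, 8.82 ± 1.70 and 6.05 ± 1.96 (n = 6). Of the sum over the family on this scale, Nr4a2 thus took 44.6 ± 9.77% in D1 and 7.08 ± 3.14% in D2 libraries labelled male, and 32.2 ± 16.2% and 4.22 ± 1.17% in those labelled female (n = 5 each). In whole cell libraries it took 12.4 ± 8.18% in D1 (n = 8) and 6.14 ± 6.09% in D2 (n = 6), and in nuclear libraries 20.3 ± 8.25% in D1 (n = 6) and 17.5 ± 5.92% in D2 (n = 5). Without the libraries with more Xist it took 51.8 ± 4.51% in the remaining 2 D1 and 7.67 ± 3.29% in the remaining 4 D2 libraries labelled male. On this scale Nr4a2 had the highest mean share in RiboTag D1 libraries labelled male alone. Per kilobase of gene span, the length over which fragments were counted, it had the highest mean share in RiboTag D1 libraries labelled female too, at 40.1 ± 16.8% against 39.8 ± 11.9% for Nr4a1 (n = 5), which is within the spread.

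Ratios of 2 members within a library do not depend on the scaling between libraries. Over 20 comparisons of such ratios (exact permutation tests, two-sided), none passed the threshold after adjustment, and the lowest adjusted p was 0.191. The log2 ratio of Nr4a1 to Nr4a3 was −0.49 ± 0.53 (SD, n = 6) in whole cell D2 and −1.19 ± 0.44 (n = 5) in nuclear D2 libraries (exact permutation p = 0.0476, adjusted p = 0.191). The groups overlapped.

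Markers of other neurons moved with Nr4a2 in the RiboTag comparison of D1 and D2. Of all genes tested, 1.64% were called higher in D1 in libraries labelled male and 1.17% in those labelled female. Of 9 cortical excitatory neuron markers, 4 were tested in libraries labelled male and 2 were called, both higher in D1. These were Slc17a7, the vesicular glutamate transporter of cortical neurons, by 2.64 log2 units, and Tbr1, a transcription factor of deep layer neurons, by 2.37. Of 8 claustrum and deep cortical layer markers, 4 were tested and 2 called, again higher in D1, namely Ccn2 (listed as Ctgf), a secreted protein of the deepest cortical layer, by 4.39 log2 units and Gnb4, a G protein subunit of the claustrum, by 0.84. In libraries labelled female 1 of 3 in each list was called, Slc17a7 by 2.43 and Gnb4 by 1.00 log2 units, both higher in D1. All members of both lists that were tested had a negative D2 minus D1 value in either labelled sex. A gene can pass the filter through the cell type where it is high alone, so that this shared direction is not a test. Without the 6 libraries with more Xist, where 2.83% of 6458 genes were called, Slc17a7 (−2.75 log2 units) and Gnb4 (−1.02) stayed called, and Tbr1 (−2.45) and Ccn2 (−4.52) kept their direction but fell under the required mean count.

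As a whole, the 9 cortical excitatory markers summed to 154.7 to 339.5 CPM in RiboTag D1 and to 12.1 to 96.6 in D2 libraries labelled male, and to 109.0 to 301.8 and 18.3 to 67.0 CPM in those labelled female. The 8 claustrum and deep layer markers summed to 178.5 to 250.3 CPM in D1 and 102.7 to 134.0 in D2 labelled male, and to 133.7 to 230.9 and 112.9 to 134.6 CPM in those labelled female. The 2 cell types did not overlap in the first list, and in the second they overlapped only in libraries labelled female. Other lists moved too. The interneuron genes Sst and Npy were called higher in D1, the latter not without the 6 libraries with more Xist, and the summed cholinergic interneuron markers were 37.5 to 49.9 CPM in D2 and 7.05 to 14.8 in D1 libraries labelled male. Astrocyte markers summed to 308.6 to 397.5 CPM in D1 and 179.4 to 244.9 in D2 libraries labelled male, which did not overlap, and to 238.7 to 372.5 and 179.6 to 244.4 CPM in those labelled female. Their 1 member tested, the glutamate transporter Slc1a2, was called higher in D1 in either labelled sex, by 0.82 and 0.77 log2 units. The part of any of these cells in the Nr4a2 difference was not tested.

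Genes of midbrain dopamine neurons, which depend on Nr4a2, were read in RiboTag libraries as well. Their 11 marker genes summed to at most 18.9 CPM in D1 and 25.3 CPM in D2 libraries, and En1, Foxa1 and Foxa2 had no count in any RiboTag library. Th, the rate-limiting enzyme of dopamine synthesis, was at 0.54 to 3.00 CPM in D1 and 1.49 to 3.68 CPM in D2 libraries. None of the 11 passed the filters of the RiboTag comparisons. The part of such cells in the Nr4a2 levels was not tested.

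Nr4a2 also followed the cortical lists from library to library within one cell type. In the 11 RiboTag D1 libraries, centred by labelled sex, its log2 CPM correlated with the mean of the claustrum and deep layer list (Pearson's r = 0.93, permutation p = 3e-05, adjusted p = 0.00045; Spearman's rho = 0.94, adjusted p = 0.0012), and r was 0.89 without the 2 most extreme libraries, 0.88 in the 6 labelled male and 0.96 in the 5 labelled female. With the cortical excitatory list r was 0.87 (permutation p, adjusted 0.00456) and rho 0.75 (adjusted 0.0219), and r fell to 0.65 without the 2 most extreme libraries. In D2 libraries, where Nr4a2 had at most 34 counts, r was 0.81 with the cortical excitatory list (n = 11, permutation p, adjusted 0.00842; rho = 0.77) and 0.47 with the claustrum list (adjusted 0.183; rho = 0.47). Without the 2 most extreme libraries these were 0.47 and −0.20, so that over all 11 libraries both values depend on those 2. Without the libraries with more Xist, r with the claustrum list was 0.96 in the 7 remaining D1 libraries (exact permutation p, adjusted 0.00397) and with the cortical excitatory list 0.89 (adjusted 0.0340), and the latter fell to −0.0225 without the 2 most extreme of these. In the 9 remaining D2 libraries r with the cortical excitatory list was 0.92 (exact permutation p, adjusted 0.00116), and 0.83 without their 2 most extreme. In all, 15 relations were computed, of which the 5 in whole cell D1 libraries are given as values only, over lists of genes that share a library and its depth.

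**Figure D4:**
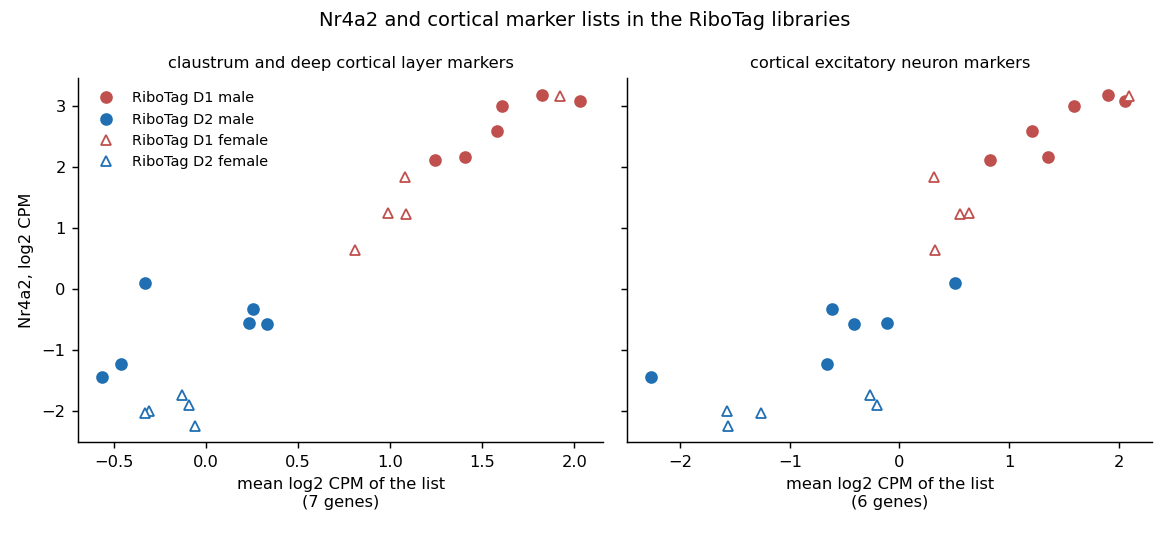
Nr4a2 log2 CPM (vertical axis) against the mean log2 CPM of the claustrum and deep layer list and of the cortical excitatory list (horizontal axes) in the 22 RiboTag libraries, by cell type and labelled sex. D1 libraries lie above D2 libraries, and within D1 the points rise from left to right (r = 0.93 and 0.87 after centring by labelled sex).

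The relation of each member to the other immediate early genes asks whether the family varied as activity genes do. In RiboTag libraries Nr4a1 had r = 0.55 in D1 (n = 11, permutation p, adjusted 0.102; rho = 0.44) and 0.69 in D2 (adjusted 0.0365; rho = 0.66), with an adjusted p of 0.0507 for the rank correlation. In D2 r was 0.72 without the 2 most extreme libraries, 0.48 in the 6 libraries labelled male and 0.91 in the 5 labelled female. Nr4a3 had r = 0.67 in D1 (adjusted 0.0380; rho = 0.74), which fell to 0.38 without the 2 most extreme libraries, and −0.15 in D2 (adjusted 0.761; rho = −0.14). Nr4a2 had r = 0.09 in D1 and −0.13 in D2 (adjusted 0.785 and 0.761; rho = 0.05 and 0.04). Without the libraries with more Xist, r was 0.77 for Nr4a1 in D2 (n = 9, exact permutation p, adjusted 0.0365), and the relation of Nr4a3 in D1 did not pass (0.76, n = 7, exact permutation p, adjusted 0.0728).

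In whole cell D1 libraries the mean of the immediate early gene list fell into 2 sets of 4 libraries, at 2.42 to 2.82 and at 3.20 to 3.41 log2 CPM. No library lay between them, and with fewer than 6 libraries in each set no correlation is given there, for this list or for the cortical lists. In order of the list mean from lowest to highest (numbers 8, 2, 5, 7, 6, 1, 4 and 3), Nr4a1 was at 2.86, 3.77, 3.54, 3.75, 4.28, 5.00, 4.66 and 5.10 log2 CPM. Nr4a3 was at 4.52, 4.82, 4.61, 4.76, 5.18, 5.16, 5.32 and 5.61 log2 CPM in the same order. Both were higher in each of the last 4 libraries than in any of the first 4. Background made up 40.9% to 87.3% of the Nr4a1 count and 39.9% to 55.3% of the Nr4a3 count in the first 4 libraries. In the last 4 it made up 8.56% to 11.5% and 12.1% to 19.5%, respectively. The part of background in this pattern was not tested. Nr4a2, whose counts were near background, was at 3.18, 3.00, 2.52, 2.55, 0.94, 1.70, 2.35 and 2.18 log2 CPM in that order, where the claustrum and deep layer list was at 3.51, 3.60, 3.41, 3.34, 2.80, 3.20, 3.14 and 3.13 and the cortical excitatory list at 2.92, 2.82, 2.32, 2.46, 1.60, 2.18, 1.72 and 1.86. All 3 of these series were higher in each of the first 4 libraries than in any of the last 4. Some lists of other cells also varied widely in whole cell D1 libraries. The midbrain dopamine neuron genes summed to 151.7 to 1025 CPM and endothelial markers to 138.0 to 1214 CPM, against 75.8 to 538.8 CPM for the cortical excitatory markers. How many of all genes split in this way was not examined, and the part of background in these series was not tested.

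**Figure D5:**
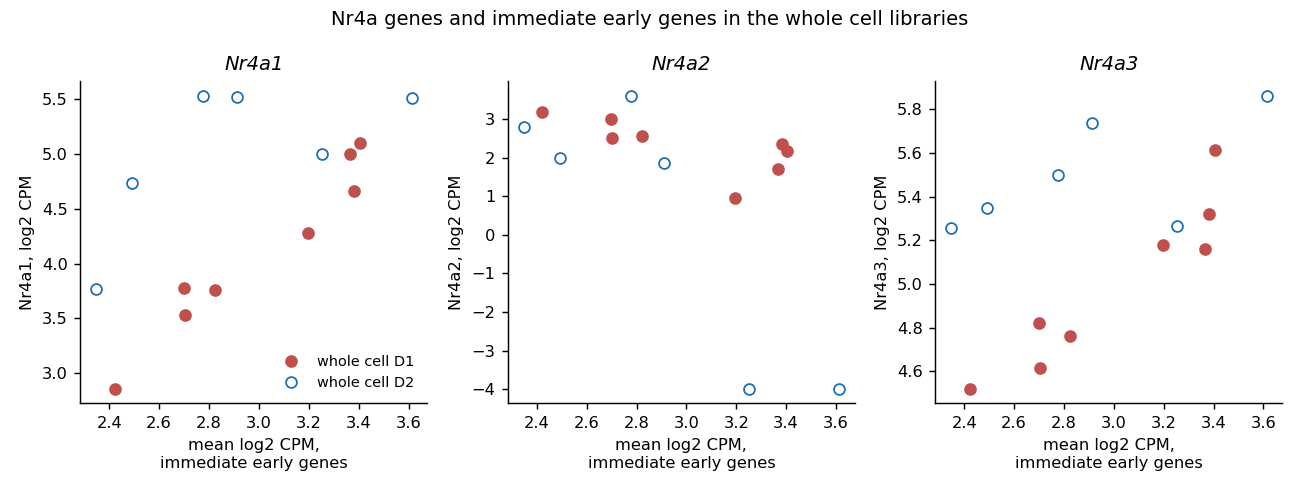
Log2 CPM of Nr4a1, Nr4a2 and Nr4a3 (vertical axes) against the mean log2 CPM of the other immediate early genes (horizontal axis) in the 14 whole cell libraries, by cell type. The D1 libraries form 2 sets, at 2.42 to 2.82 and at 3.20 to 3.41, and the 2 D2 libraries without an Nr4a2 count lie at the bottom of its panel.

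The genes whose pattern was most like each member are given by Pearson's r of log2 CPM, as a description across libraries. Over the 22 RiboTag libraries the nearest to Nr4a2 among 11145 genes were Slc1a2 (0.96), a glutamate transporter, Gm15270 (0.96), the neuropeptide gene Cck (0.96), Ccn2 (0.95) and Nxph3 (0.95), a neurexophilin, all of which share the D1 to D2 contrast. Within the 11 D1 libraries, centred by labelled sex, they were Cadps2 (0.97), Neurod6 (0.96), a transcription factor of cortical excitatory neurons and a member of that list, Tmem178 (0.95), Dkk3 (0.95) and Gabbr2 (0.94), a GABA-B receptor subunit. The other 2 members ranked far lower there, with r of 0.05 for Nr4a1 and 0.06 for Nr4a3.

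For Nr4a3 the nearest genes over the 22 RiboTag libraries were Fosl2 (0.92), Ranbp2 (0.83), Egr1 (0.78), Gm20687 (0.78) and Dnajb5 (0.76), and for Nr4a1 they were Egr1 (0.73), Crip2 (0.73), Tspoap1 (0.72), Ramp1 (0.72) and Tsc1 (0.70). Egr1, an immediate early transcription factor, was thus near both. Over the 14 whole cell libraries, centred by cell type, the nearest to Nr4a1 among 33824 genes were Rnf181 (0.96), Atf4 (0.94), Slc36a4 (0.90), Srf (0.90) and Ndfip2 (0.89). The nearest to Nr4a3 there were Lman2 (0.91), Srf (0.90), Mchr1 (0.89), Ddx41 (0.88) and 9830144P21Rik (0.87). Srf, a factor that drives immediate early genes, was thus near both, and Nr4a1 and Nr4a3 had r = 0.87 with each other. Background took a larger part of both counts in some whole cell D1 libraries than in others, as given above. Its part in these values was not tested.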

How the data were processed

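The authors prepared ribosome-depleted, paired-end libraries with a stranded SMARTer kit, aligned them to GRCm38 with HISAT2 2.0.5 and counted fragments per Ensembl gene with featureCounts, over whole gene bodies, ignoring strand, counting a fragment for every gene it overlaps and leaving out those aligned to several places. The deposited values are raw counts in 49 columns. The column named as a repeat of whole cell D1 number 1 was summed with it (chi-square per degree of freedom 6.26, against 5.53 to 130.4 between other libraries of that group). Whether it came from the same mouse is not settled by the labels or by this value, and the count of called genes depends on it, as given at the end. Also summed were the lanes of whole cell D2 number 3, which agree within sampling noise (1.04). The sample titles list 8 whole cell D2 samples, and 6 D2 libraries were used here.

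Genes needed over 1 FPM in 2 or more libraries. Their FPKM (by gene span) also had to reach 1 in some library and exceed 50000 in none or, for RiboTag alone, to reach 0.1 in 2 libraries. D1 and D2 were compared within each method, methods over all libraries labelled male, and labelled sexes over all RiboTag libraries, by edgeR 4.0.16 (R 4.3.3, TMM, quasi-likelihood test, Benjamini-Hochberg over all genes tested). Nuclear calls also needed an SE below the 75th percentile. Ratios (count plus 0.5) were compared by exact permutation. Relations used 100000 resamples or exact pairings for n under 10 (SciPy 1.17.1), and log2 CPM a prior count of 1. The fits were tested on simulated data. DESeq2 1.42.0 and other alternatives are given at the end, of which leaving out libraries by Xist (fits, shares, ratios and relations) and another scaling for relations were chosen after seeing the data.

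A name was found for 52489 of 52636 identifiers. Coordinates come from the GENCODE annotation of GRCm38 and promoters from RefSeq. Floors of 3 counts cover counting error only and ranged from 0.0436 to 0.811 CPM. The named genes were the members, the lists with up to 5 called genes each, the neighbours, and the 5 genes most like each member by Pearson's r. The members and lists were chosen with earlier results of these data known. Same-numbered libraries did not deviate together (correlations from −0.283 to 0.258), so the numbers pair no samples. The oligodendrocyte list is not reported here.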

Additional observations from a re-analysis of the deposited data

How the results depend on the processing

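Under alternatives other than leaving out 1 library, the ratio tests kept their direction and side of the threshold in all 48 and the relations in 39 of 40, the exception being Nr4a3 with the immediate early genes in RiboTag D1 libraries without those with more Xist than Y-linked counts. Of the 207 alternatives for single members, 176 kept both, and of the 78 for counts of called genes, 59 stayed within 1.5 times. The causes of the changes were not tested. Counts near background limit what can be shown of Nr4a2 in whole cell and nuclear D2 libraries. They also limit what can be shown of Nr4a1 and Nr4a3 in nuclear D2 and some whole cell D1 libraries.

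Between D1 and D2, 145 genes were called in whole cell libraries (49 higher in D2), and 678 with DESeq2 (432 higher in D2), 195 with DESeq2's size factors (140 higher in D2), 34 without the FPKM filter, 94 with the replicate number as a block (20 higher in D2), 310 with the repeat of D1 number 1 as a library of its own and 496 with the lanes of D2 number 3 apart. In nuclear libraries 1213 were called (318 higher in D2), 7288 without the FPKM filter and 0 with the replicate block, and in RiboTag libraries labelled male 176 and, without the filter, 338. Between methods the counts without the FPKM filter were 5206 and 5613 for nuclear against whole cell (D1, D2) and 18255 and 18511 for RiboTag against whole cell, and with the fit limited to the 2 groups compared the latter were 2104 and 1410. Between labelled sexes DESeq2 called 1 gene in D1 and 7 in D2, the fit limited to the 2 groups 3 and 8, and the fit without the libraries with more Xist than Y-linked counts 6 in D1.

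With DESeq2, Nr4a1 passed the threshold in whole cell D1 against D2 (0.86 log2 units, adjusted p = 0.0445) and in nuclear against whole cell D1 (0.74, adjusted p = 0.0164), as did Nr4a3 in the latter (0.69), and Nr4a2 lost its call in nuclear against whole cell D2 (1.66). With DESeq2's size factors in edgeR, the nuclear against whole cell D1 differences were 0.74 (Nr4a1), 1.36 (Nr4a2) and 0.69 (Nr4a3) log2 units, all called. Without the FPKM filter, Nr4a2 was called in nuclear D1 against D2 (−1.30, adjusted p = 0.0458) and Nr4a3 turned to −1.001 (adjusted p = 0.0697), while the median of all genes moved from 0.04 to −1.07. In nuclear against whole cell it was 1.83 (Nr4a2) and 0.85 (Nr4a3) in D1, both called, and in D2 −1.20 (Nr4a1, called), 0.94 (Nr4a2, call lost) and −0.48 (Nr4a3, reversed), where the median moved from 0.12 to −0.88. RiboTag against whole cell turned to 0.95 (Nr4a1) and 0.94 (Nr4a3) in D1 and to 0.47 (Nr4a1), 0.71 (Nr4a2) and 0.30 (Nr4a3) in D2, while Nr4a2 in D1 rose to 3.77.

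With the replicate number as a block, Nr4a2 was called in nuclear against whole cell D1 (1.68, adjusted p = 0.0254), and no other call of a member changed. Same-numbered libraries of whole cell D1 and D2 had correlations of −0.267 to 0.156, and none of the 6 correlated best with its own number. In nuclear against whole cell D1 the repeat as a library of its own gave calls for Nr4a2 (1.33) and Nr4a3 (0.58), the lanes apart for Nr4a3 (0.56), the fit limited to the 2 groups for Nr4a2 (1.26) and the fit without the libraries with more Xist than Y-linked counts for Nr4a3 (0.59). The last setting also gave 1.51 for Nr4a2 in nuclear against whole cell D2, −1.13 for Nr4a3 in RiboTag against whole cell D1 (called), −0.74 for Nr4a1 in D2 (call lost) and 0.23 for Nr4a3 between labelled sexes in D1. The fit limited to the 2 groups called Nr4a3 between labelled sexes in D2 (−0.89).

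Leaving out 1 library at a time gave 57 to 303 called genes in whole cell and 390 to 1578 in nuclear D1 against D2, 0 to 23 and 4 to 11 between labelled sexes (D1, D2). Nr4a1 and Nr4a2 in nuclear D1 against D2 ranged from −0.37 to 0.0206 and from −0.21 to 0.19 log2 units. In nuclear against whole cell D1, Nr4a1 was called without nuclear D1 number 2, 3 or 6 (range 0.40 to 0.74), Nr4a2 without whole cell D1 number 2 or 8, whole cell D2 number 1, 2 or 5, or nuclear D1 number 4 (1.06 to 1.54), and Nr4a3, which passed the filter in 14 of 37 fits, in 5 of these (0.50 to 0.58). Between labelled sexes in D1, Nr4a1 ranged from −0.15 to 0.14 and Nr4a2 from −1.41 to −0.64. A pair of ratios changed sign, Nr4a1 to Nr4a2 in nuclear D1 against D2 (−0.22 to 0.32) and Nr4a1 to Nr4a3 in nuclear against whole cell D1 (−0.11 to 0.23).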
